A study of Mus musculus with 11 samples.

Results

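Control read density is the number of control reads per kb of a chromatin segment, and it was followed along chromosomes 1 to 19 of a mouse T-cell leukaemia line to look for gained or lost chromosomes and regions. The members are the segments on those 19 autosomes in the 4 deposited histone lists, 129710 of 131715 segments in all: 45495 in the H3K4me1 list, 26169 in the H3K4me3 list, 33047 in the list labelled H3K27me3 and 24999 in the list labelled H3K27ac. Another 1995 segments lay on X and 10 on Y. A segment was listed where precipitated reads exceeded the control, so a place with more control reads needed more precipitated reads to enter a list.

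The series holds 11 libraries of chromatin immunoprecipitation and input, each a group of its own, from 8946 cells, a murine T-lymphoblastic leukaemia line. All cells had been transduced by retrovirus with an epitope-tagged Zmiz1 linked to NGFR and an activated Notch1 linked to GFP, and sorted as GFP+ and NGFR+. The Flag line carries Flag-Zmiz1 with the Notch1 construct L1601PDP, and it gave the 4 histone libraries, the Rbpj, Flag-Zmiz1 and ICN1 libraries and an input. The HA line carries HA-Zmiz1 with the Notch1 construct DEGFDLNRDP, and it gave the HA-Zmiz1 library, an ICN1 library and an input of its own, per the file headers from pooled reads for the precipitations. Untransduced 8946 cells and normal mouse DNA were not analysed here, so densities are compared between chromosomes of the same cells and never with a normal genome.

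Input chromatin is fragmented DNA that was not enriched with an antibody, and the number of its reads from a stretch of genome follows the number of copies of that stretch in the cells, beside how well its sequence is amplified and mapped and how open its chromatin is. Mouse T-cell leukaemias and lymphomas are known for gain of chromosome 15, which carries Myc, a transcription factor that drives growth and a direct target of Notch1. They are also known for deletions of tumour suppressors such as Cdkn2a and Ikzf1, and, as T-lineage cells, for deletions between the joined segments of the T-cell receptor genes. In a diploid genome 1 extra copy in every cell gives 1.5 times the density of the other chromosomes and 1 missing copy gives 0.5 times.

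Control read density can also move with base composition, which differs widely between promoters. Of 31363 RefSeq promoter windows of GRCm38.p6 (250 bases before a gene's start to 50 after it), the median GC content was 53%, with quartiles of 46 and 62%. A pair of these windows is shown because the first lies on chromosome 15 and the second elsewhere, and because they lie at opposite sides of that range. Il7r encodes the interleukin-7 receptor, a survival receptor of early T cells, and its window at chr15:9529827-9530126 (minus strand) had 45.7% GC and 1 CG, in capitals. Notch1 encodes the receptor whose activated form had been transduced, and its window at chr2:26503773-26504072 (minus strand) had 68.3% GC and 23 CG, also in capitals.
Il7r: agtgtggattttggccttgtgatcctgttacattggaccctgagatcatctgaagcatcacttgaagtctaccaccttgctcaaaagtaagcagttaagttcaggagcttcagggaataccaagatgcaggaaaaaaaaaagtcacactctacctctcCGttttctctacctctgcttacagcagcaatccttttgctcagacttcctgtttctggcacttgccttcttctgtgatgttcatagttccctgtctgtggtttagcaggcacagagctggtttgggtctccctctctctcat
Notch1: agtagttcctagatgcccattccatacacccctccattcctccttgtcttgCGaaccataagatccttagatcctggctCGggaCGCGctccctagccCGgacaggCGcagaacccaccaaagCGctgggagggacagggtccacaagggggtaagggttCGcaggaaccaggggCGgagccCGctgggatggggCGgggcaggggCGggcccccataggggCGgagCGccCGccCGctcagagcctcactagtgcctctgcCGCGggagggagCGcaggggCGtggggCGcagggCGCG
The H3K4me3 segment over the Il7r window had 280 control reads and a density 1.36 times the autosomal median of its list (exact Poisson 95% interval 1.21 to 1.53). The H3K4me3 segment over the Notch1 window had 67 reads and 0.886 times the median (0.687 to 1.13). In the list labelled H3K27me3 the same windows lay in segments at 1.39 (1.28 to 1.5) and 0.942 (0.710 to 1.23). The list labelled H3K27ac had a segment over the Notch1 window only, with 107 reads at 1.22 (1.00 to 1.48). The AT-richer window, on chromosome 15, had the higher control density in both lists with a segment over each window. The pair differs in chromosome as well as in GC content, and the parts of these cannot be told apart from it. These intervals and those below cover counting error only.

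All 4 lists hold counts of the same control library. Segments with the same start and end in a pair of lists had equal control counts in 699 of 699 cases. The list labelled H3K27ac had only 2 such segments with each of the others, so for it this rests on few. The lists are therefore 4 samplings of a single library at different places, not replicates, and no test could be made. Autosomal segments held 4.70 M control reads in the H3K4me1 list, 1.83 M in the H3K4me3 list, 3.33 M in the list labelled H3K27me3 and 2.77 M in the list labelled H3K27ac. The median density was 23.0, 27, 24.3 and 17.5 control reads per kb in that order, so each density is given below as a ratio to the autosomal median of its own list. The lists cover different chromatin. Segments lay over an end of 12 of 12 T-lineage genes (Cd3e, Lck and Bcl11b among them) in the H3K4me1, H3K4me3 and labelled H3K27me3 lists and of 0 of 12 in the list labelled H3K27ac. Of the other lineages, 1 to 3 of 6 B-lineage genes had one in each list, and myeloid genes 4 of 6 in the list labelled H3K27ac and 0 of 6 in the others. Of 15 developmental regulators such as Pax6, 0 had a segment in the list labelled H3K27me3 and 13 in that labelled H3K27ac, and of 15 housekeeping genes 14 and 0. Since H3K27me3 marks silenced and H3K27ac active genes, these lists go against their labels, and the names of the deposited files carry the other mark, so both are called by their labels throughout. The exchange leaves the control counts the same, since both lists used the same control.

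Chromosome 15 stood above every other autosome. Its median control density was 1.35 times the autosomal median in the H3K4me1 list, 1.39 in the H3K4me3 list, 1.3 in the list labelled H3K27me3 and 1.36 in that labelled H3K27ac. In all 4 lists it passed the ratio of 1.2 set for a gain, and 1 of 19 autosomes was called gained in each list (5.26%) and 0 lost at a ratio of 0.8 or less (0%). The other 18 autosomes ran from 0.953 for chromosome 19 in the list labelled H3K27ac to 1.02 for chromosome 11 in the H3K4me3 list. After chromosome 15, the highest medians over the lists were those of chromosome 11 (1.02) and chromosome 10 (1.01). The lowest were those of chromosome 14 (0.967), which carries the Tcra locus and Zmiz1, chromosome 8 (0.967) and chromosome 19 (0.972). The SD over the 18 other autosomes was 0.0149 in the H3K4me1 list, 0.0164 in the H3K4me3 list, 0.0143 in the list labelled H3K27me3 and 0.0183 in that labelled H3K27ac. The distance of chromosome 15 from the rest was thus many times the spread among the rest in each list.

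**Figure D1:**
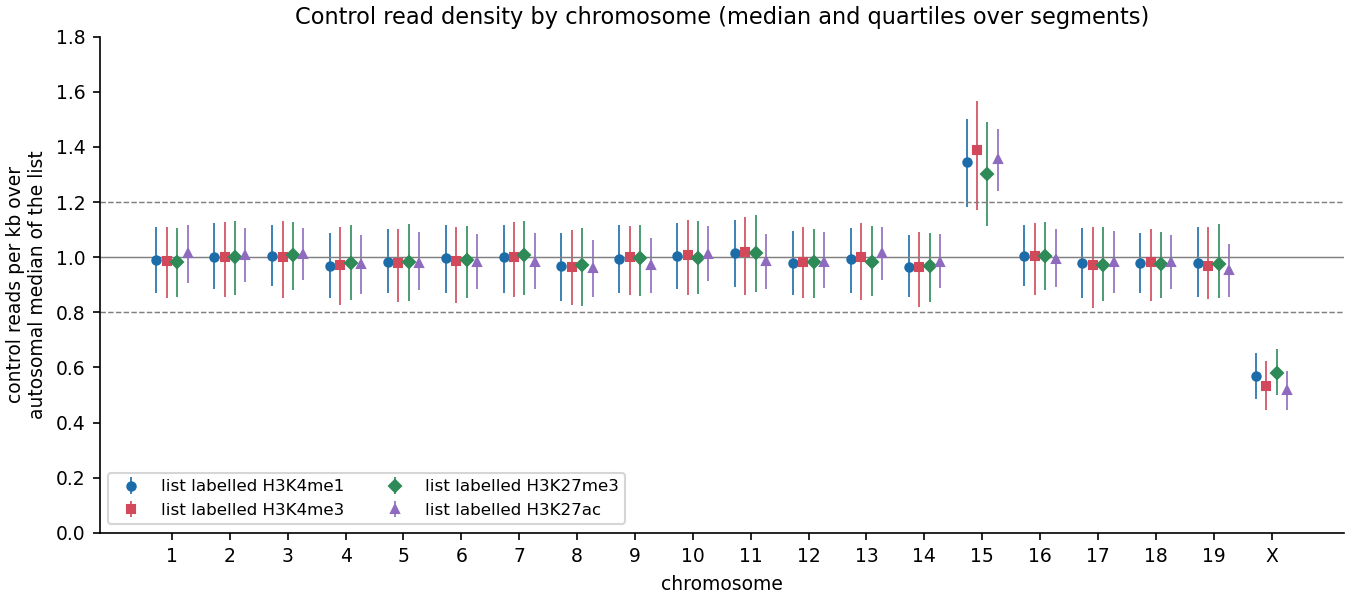
Control read density of chromosomes 1 to 19 and X as a ratio to the autosomal median of each list (vertical axis, linear), with points for medians and bars for quartiles over segments and dashed lines at 1.2 and 0.8. Chromosome 15 lies between 1.3 and 1.39 in the 4 lists, the other autosomes between 0.953 and 1.02, and X below 0.6.

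The difference lay in most segments of chromosome 15 and not in a few. The quartiles of its segments were 1.18 and 1.5 in the H3K4me1 list, 1.17 and 1.57 in the H3K4me3 list, 1.11 and 1.49 in the list labelled H3K27me3 and 1.24 and 1.47 in that labelled H3K27ac. Of its segments, 83.2, 79.0, 74.3 and 92.2% in that order lay above the upper quartile of segments on the other autosomes. Read as all control reads over all kb, chromosome 15 had a ratio of 1.35 (exact Poisson 95% interval 1.35 to 1.36) from 409830 reads in the H3K4me1 list, 1.39 (1.38 to 1.39) in the H3K4me3 list, 1.33 (1.32 to 1.33) in the list labelled H3K27me3 and 1.34 (1.34 to 1.35) in that labelled H3K27ac. Depth therefore puts little error on the chromosome's value, and the spread between lists, which sample different chromatin, is the larger. Against the other autosomes alone the ratio was 1.36, 1.41, 1.31 and 1.37. Each of these lies below the ratio of 1.5 that 1 extra copy in all cells would give, and a lower share of cells with the extra copy and a compression of the scale cannot be told apart here.

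**Figure D2:**
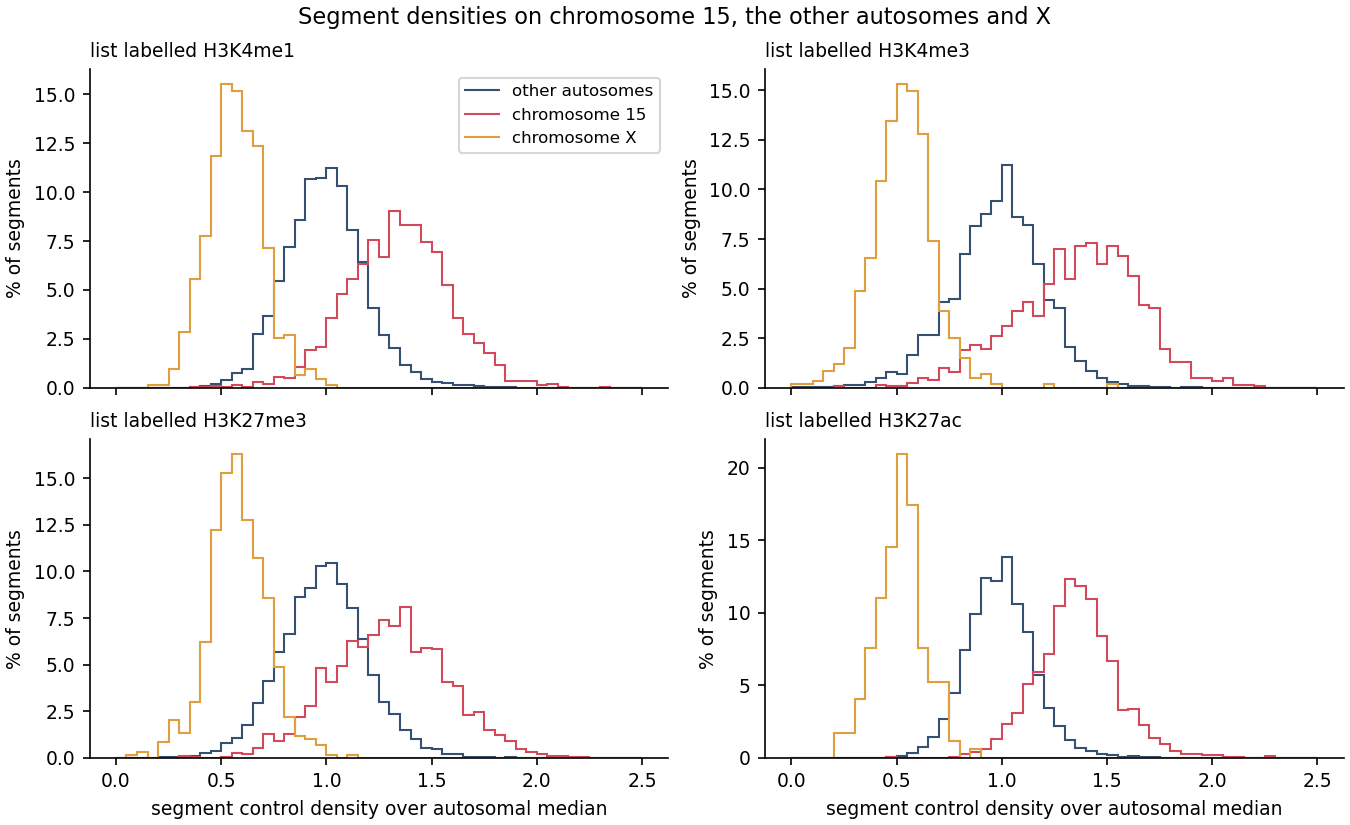
Share of segments (vertical axis, %) by control read density over the autosomal median of the list (horizontal axis), for chromosome 15, the other 18 autosomes and X in each list. The chromosome 15 curve is moved as a whole to the right, with medians of 1.3 to 1.39, and overlaps the upper side of the other autosomes; the X curve lies to the left with medians of 0.519 to 0.58.

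Chromosome X, which is not among the members, gives a second point on the same scale. Its 632 segments in the H3K4me1 list had 0.573 times the density of the autosomes other than 15, its 595 segments in the H3K4me3 list 0.539, its 596 in the list labelled H3K27me3 0.585 and its 172 in that labelled H3K27ac 0.525. These values stand near but above the 0.5 of a chromosome present once per cell, as those of chromosome 15 stand below 1.5. Chromosome 15 over X gave 2.37, 2.61, 2.25 and 2.61 in the same order of lists. Y had 1 to 3 segments a list, too few to read, and the labels do not give the sex of the mouse from which the line came.

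The density of the precipitated reads was raised less than the control on chromosome 15. Its median precipitation density was 1.1 times the autosomal median in the H3K4me1 list, 1.05 in the H3K4me3 list, 0.998 in the list labelled H3K27me3 and 1.06 in that labelled H3K27ac. The fold over control that the authors deposited was accordingly lower on chromosome 15, at 0.818, 0.765, 0.762 and 0.786 times the median of each list. On the other autosomes the precipitation density ran from 0.968 to 1.02 in the H3K4me1 list and from 0.971 to 1.03 in the list labelled H3K27ac, so chromosome 15 lay above them in both. It lay within their range in the H3K4me3 list (0.840 to 1.25) and in the list labelled H3K27me3 (0.9 to 1.11). The fold on the other autosomes ran from 0.977 to 1.03 in the H3K4me1 list, 0.857 to 1.36 in the H3K4me3 list, 0.931 to 1.09 in the list labelled H3K27me3 and 0.963 to 1.06 in that labelled H3K27ac, so chromosome 15 had the lowest fold in each. Segments were also more numerous and wider there. Chromosome 15 holds 776 protein-coding genes, 3.76% of those on the autosomes, and 4.50, 4.66, 5.03 and 6.08% of the segments. Their median width was 4.0 kb against 2.8 elsewhere in the H3K4me1 list, 2.4 against 2.0 in the H3K4me3 list, 3.6 against 2.6 in the list labelled H3K27me3 and 5.6 against 4.6 in that labelled H3K27ac. The part of this in the control ratio was not tested beyond the setting with segments of at least 2 kb, which left the ratio of chromosome 15 within the spread of the lists.

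Along the autosomes, the segments were placed in 5 Mb bins by their midpoints, and a bin was read where a list had at least 10 segments in it. At a ratio of 1.2 or more, 17 of 463 bins were gained in the H3K4me1 list (3.67%), 15 of 444 in the H3K4me3 list (3.38%), 14 of 450 in the list labelled H3K27me3 (3.11%) and 18 of 398 in that labelled H3K27ac (4.52%). All of these lay on chromosome 15, and 0 bins of the other autosomes were gained in any list. Of 443 bins with a value in 3 or more lists, 15 were gained in 3 or more of them (3.39%), 14 of these in all 4, and 0 were lost in 3 or more (0%). The highest bin outside chromosome 15 reached 1.09 in the H3K4me1 list, 1.14 in the H3K4me3 list, 1.13 in the list labelled H3K27me3 and 1.12 in that labelled H3K27ac. Of the 18 bins of chromosome 15, 18, 17, 17 and 18 lay above that highest value.

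The gained bins ran along nearly the whole of chromosome 15. They formed 3 runs, from 5 to 15 Mb (2 bins), from 30 to 45 Mb (3 bins) and from 55 to 105 Mb (10 bins). Between them, the bins from 15 to 25 Mb and from 45 to 50 Mb had fewer than 10 segments in every list, and no value. The bin from 25 to 30 Mb had ratios of 1.21 in the H3K4me1 list, 1.2 in the H3K4me3 list, 1.17 in the list labelled H3K27me3 and 1.26 in that labelled H3K27ac, and the bin from 50 to 55 Mb had 1.22, 1.2, 1.14 and 1.31. Both passed the limit in 2 lists and lay under it in the others, the H3K4me3 values reaching 1.2 only by rounding. The first 5 Mb gave the lowest values, at 1.16, 1.11, 1.04 and 1.2 in the same order, from 13 to 20 segments a list. No bin of chromosome 15 was at or below the autosomal median in any list.

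The highest bin of the genome was that from 95 to 100 Mb of chromosome 15, with 1.45 in the H3K4me1 list, 1.46 in the H3K4me3 list, 1.42 in the list labelled H3K27me3 and 1.43 in that labelled H3K27ac. It holds 84 protein-coding genes. The next was the bin from 60 to 65 Mb, which holds Myc among 11 protein-coding genes, with 1.43, 1.49, 1.38 and 1.36. The bins from 90 to 95 Mb (1.42, 1.47, 1.35 and 1.36), from 55 to 60 Mb (1.37, 1.46, 1.36 and 1.40) and from 35 to 40 Mb (1.41, 1.40, 1.34 and 1.36) completed the 5 highest. The gene-poor bin of Myc and the gene-rich bin from 95 to 100 Mb were thus alike in density. Both were picked for their density, so their likeness says nothing of gene content along the chromosome. Bins varied more along chromosome 15 than elsewhere in 3 lists, with an SD of 0.0848 against 0.0507 in the H3K4me1 list, 0.110 against 0.0608 in the H3K4me3 list and 0.0964 against 0.0526 in the list labelled H3K27me3. In the list labelled H3K27ac the SDs were 0.0508 and 0.0496.

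**Figure D3:**
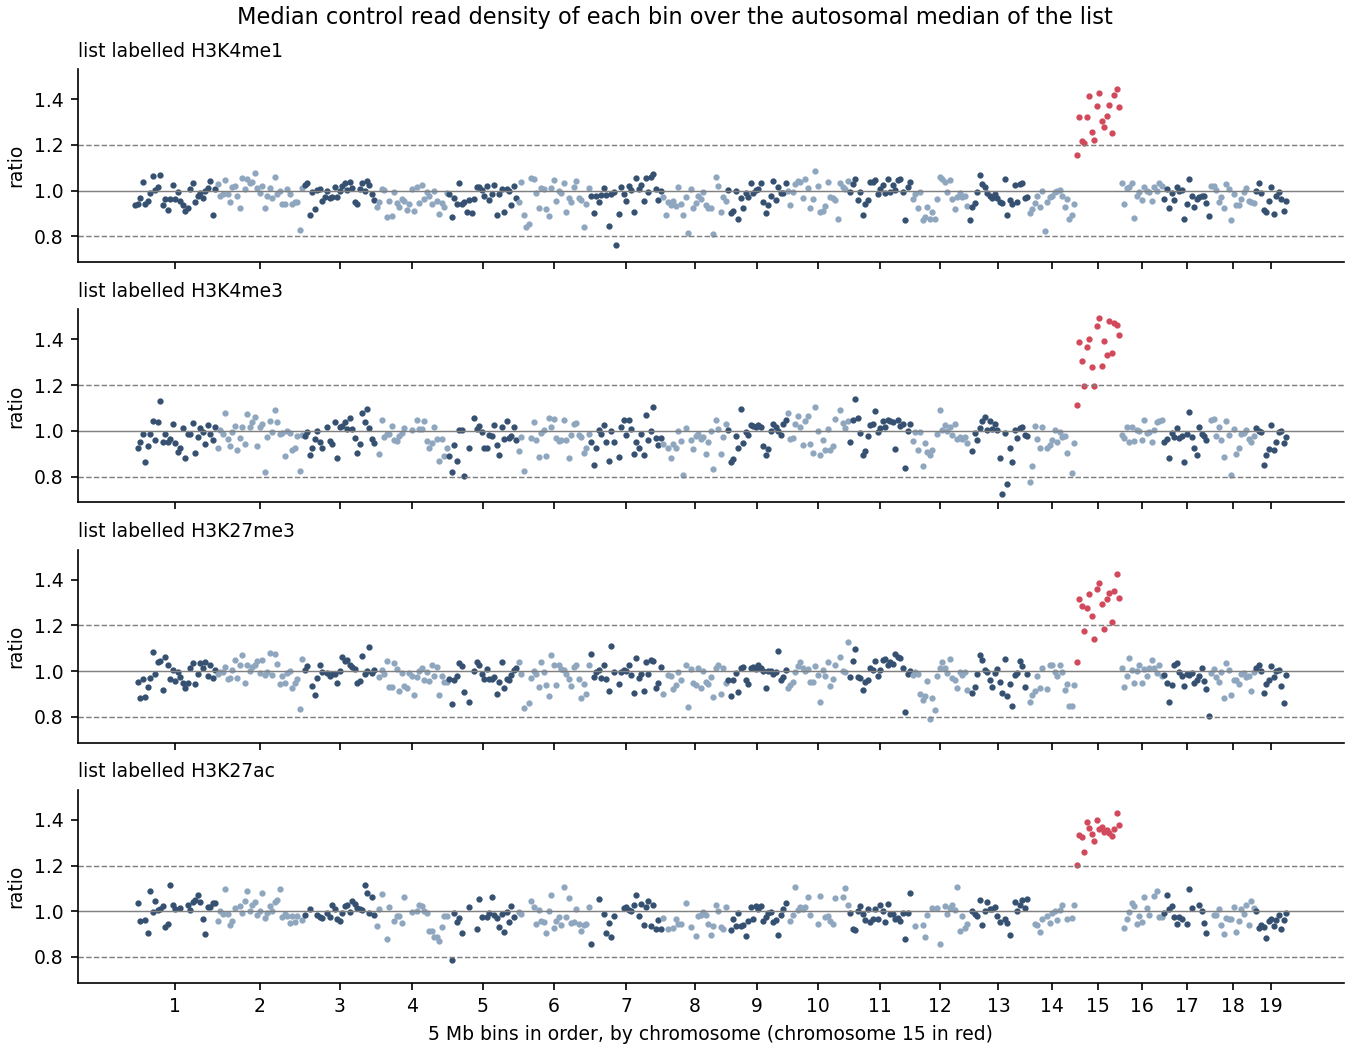
Median control read density of each 5 Mb bin over the autosomal median of the list (vertical axes), with bins in order along chromosomes 1 to 19 (horizontal axis), 1 panel a list and dashed lines at 1.2 and 0.8. Bins of chromosome 15, in red, lie between 1.04 and 1.49, and no bin of the other autosomes reaches 1.2.

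Low bins were few, and with at least 10 segments no bin was called low in more than 1 list. At a ratio of 0.8 or less, 1 bin was lost in the H3K4me1 list (0.216%), 3 in the H3K4me3 list (0.676%), 1 in the list labelled H3K27me3 (0.222%) and 1 in that labelled H3K27ac (0.251%). The H3K4me3 list gave the lowest, 0.725 for chromosome 13 from 65 to 70 Mb, where the H3K4me1 list had 0.947 and the list labelled H3K27me3 0.905. Chromosome 13 from 75 to 80 Mb had 0.766 and chromosome 14 from 5 to 10 Mb 0.775 in the H3K4me3 list, against 0.893 and 0.901 in the H3K4me1 list. Chromosome 12 from 35 to 40 Mb had 0.789 in the list labelled H3K27me3 and 0.876 in the H3K4me1 list. Chromosome 5 from 5 to 10 Mb had 0.786 in the list labelled H3K27ac and 0.821 to 0.886 in the others. Chromosome 7 from 50 to 55 Mb had 0.764 in the H3K4me1 list and fewer than 10 segments in the others, where 6 H3K4me3 segments gave 0.689 and 7 of the list labelled H3K27me3 gave 0.734. With a minimum of 5 segments it was low in all 3 of these lists. Among bins with a value in 3 or more lists, the lowest by the median over lists were chromosome 2 from 175 to 180 Mb (0.827), chromosome 5 from 5 to 10 Mb (0.839), chromosome 6 from 10 to 15 Mb (0.840), chromosome 11 from 110 to 115 Mb (0.854) and chromosome 8 from 100 to 105 Mb (0.859). None of them is near the 0.5 of a lost copy.

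A region lost on both chromosomes gives no segment and so no density. Of 475 bins with at least 5 protein-coding genes, 4 had no segment in any list: chromosome 14 from 0 to 5 Mb (33 genes), chromosome 5 from 10 to 15 Mb (14) and from 15 to 20 Mb (16), and chromosome 6 from 75 to 80 Mb (9). The last of these held 2 Flag-Zmiz1 peaks, so reads were placed there. The other 3 held no peak of Rbpj, Flag-Zmiz1, HA-Zmiz1 or HA-line ICN1. Silent chromatin and absent DNA cannot be told apart for these 3 in the files used here. The reads kept were uniquely mapped, and the part of this in the empty bins was not tested.

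The lists were compared for the pattern along the genome. Over bins, the Pearson correlation of a pair of lists ran from 0.718 to 0.896 (396 to 450 bins) and the Spearman correlation from 0.275 to 0.741. Without chromosome 15 the Pearson range was 0.174 to 0.718 (378 to 432 bins), so a large part of the likeness comes from that chromosome. Overlapping segments count the same control reads, so part of the likeness is built in. Segments that overlapped no segment of another list made up 26.2% of the H3K4me1 list, 2.10% of the H3K4me3 list, 10.4% of the list labelled H3K27me3 and 84.9% of that labelled H3K27ac. Over these alone the correlation was 0.654 to 0.766 (3 pairs, 135 to 339 bins), and 0.284 to 0.404 without chromosome 15. Chromosome 15 was as high over them, at 1.35 in the H3K4me1 list (436 segments), 1.38 in the H3K4me3 list (23), 1.28 in the list labelled H3K27me3 (257) and 1.35 in that labelled H3K27ac (1237). Over the same segments the other autosomes ran from 0.7 to 1.18 in the H3K4me3 list and from 0.943 to 1.03 in the other lists. The height of chromosome 15 was thus present in 4 sets of segments that share no control reads. In the H3K4me3 set it rests on few segments and stands over a wider spread. Over the 19 chromosome medians the Pearson correlation was 0.976 to 0.998, and 0.388 to 0.949 over the 18 without chromosome 15. The 3 lists over active genes shared the small differences between the other autosomes more closely (0.917 to 0.949) than the list labelled H3K27ac shared them with any of the 3 (0.388 to 0.576).

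The input background at factor peaks comes from the peak lists and not from the segment counts, and for the HA line from a separate input library. The Flag line has a single input in the series. Its Rbpj and Flag-Zmiz1 backgrounds are therefore a recount of the library used as the segments' control, and not a separate readout. Rbpj is the DNA-binding partner of Notch1, and HA-Zmiz1 is the tagged coactivator. The background was worked back from each deposited pileup and fold, from an input of 36.4 M filtered tags for the Flag line and one of 26.8 M for the HA line. At 1230 Rbpj peaks of chromosome 15 the median background was 1.34 times the autosomal median (quartiles 1.16 and 2.07), and the other autosomes ran from 0.868 to 1.03. At 299 HA-Zmiz1 peaks of chromosome 15 in the HA line it was 1.22 (1.11 and 1.75), with the others from 0.889 to 1.11. Chromosome 15 was the highest of 19 autosomes in both. Peaks of X had 0.512 at 344 Rbpj peaks and 0.583 at 35 HA-Zmiz1 peaks. The HA-line ICN1 peaks, which share the HA input, gave 1.56 on chromosome 15 from 30 peaks, against 0.808 to 1.29. At Flag-Zmiz1 peaks chromosome 15 (1.49, 44 peaks) ranked 3 of 19 autosomes, and 38.3% of the peaks in that list stood at the lowest background value. Both lines were made from 8946 cells, so the HA input is a second library and not a second leukaemia.

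**Figure D4:**
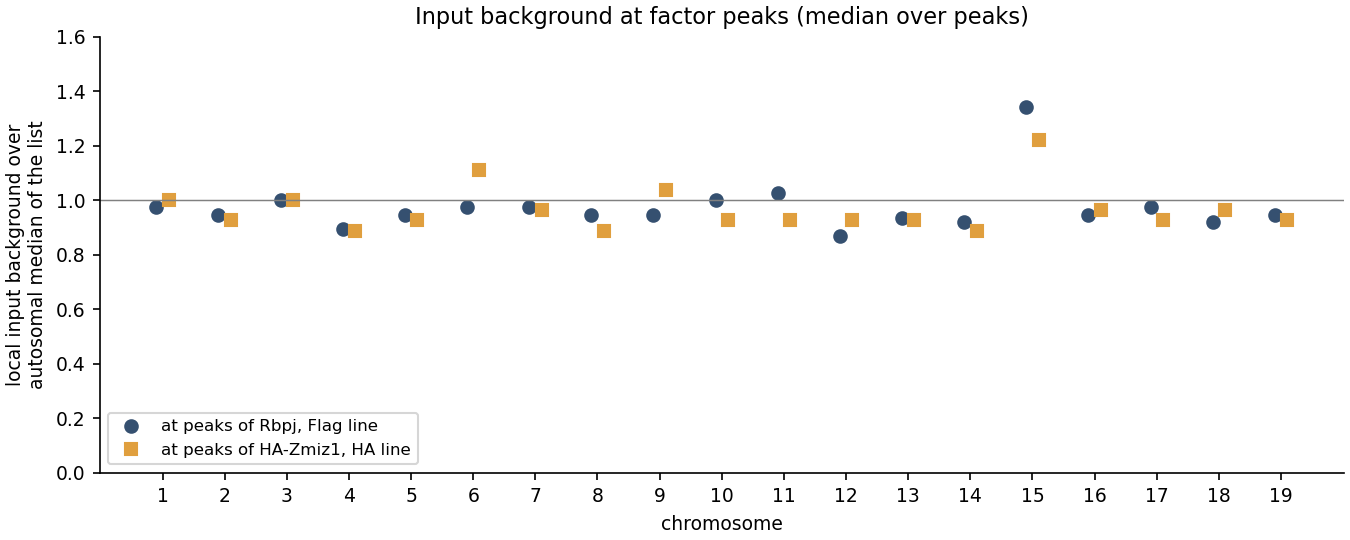
Median local input background at factor peaks over the autosomal median of the list (vertical axis) on chromosomes 1 to 19 (horizontal axis), for Rbpj peaks of the Flag line and HA-Zmiz1 peaks of the HA line. Chromosome 15 is the highest in both, at 1.34 and 1.22, and the other autosomes lie between 0.868 and 1.11.

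Outside chromosome 15, base composition and gene density moved only weakly with control density, and the sign differed between lists. Bins of chromosome 15 had a median promoter GC content of 51.8% (17 bins) and those of the other autosomes 53.8% (423 bins). Over bins outside chromosome 15, the Pearson correlation of the ratio with promoter GC was 0.248 in the H3K4me1 list (423 bins), 0.150 in the H3K4me3 list (405), 0.252 in the list labelled H3K27me3 (411) and -0.132 in that labelled H3K27ac (362). With the number of protein-coding genes it was 0.302, 0.133, 0.356 and -0.170 over the same bins. Within chromosome 15 (17 bins) the correlation with gene number was positive in every list, at 0.327, 0.324, 0.360 and 0.341. With promoter GC it was 0.141, 0.236, 0.150 and 0.0983 there, in the same order of lists. For 8454 H3K4me3 segments over a promoter window, sorted into 10 groups of equal size by the GC content of the window, chromosome 15 stood 1.38 to 1.49 times above the other autosomes in 10 of 10 groups, from 14 to 32 segments on chromosome 15 a group. The other autosomes moved from 0.935 to 1.03 across the same groups. The GC content of whole segments, and of the other lists, was not used here.

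Of 39 genes from T-cell leukaemia, the constructs, the receptor loci and the Notch complex, all had a value for their bin, and 35 had a segment within 10 kb in some list. Myc and Il7r lay on chromosome 15 and are both in gained bins. The Il7r bin, from 5 to 10 Mb, had 1.32 in the H3K4me1 list, 1.39 in the H3K4me3 list, 1.32 in the list labelled H3K27me3 and 1.33 in that labelled H3K27ac. At the Myc gene the H3K4me3 segment from 61983001 to 61990800 held 328 control reads at 1.56 times the median (exact Poisson 95% interval 1.39 to 1.74). The segment of the list labelled H3K27me3 from 61981001 to 61992600 held 428 at 1.52 (1.38 to 1.67), and the H3K4me1 segments on either side of the promoter had 1.49 (1.26 to 1.76) and 1.46 (1.29 to 1.64). A pair of short flanking segments starting at 61977801 and 61977601 had 1.04 each, with intervals of 0.752 to 1.40 and 0.814 to 1.32. The intervals of the segments over the Myc gene held the value of its bin in each of the 3 lists.

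The other 37 genes lay on other autosomes, and 0 of them were in a bin called gained or lost in any list. Of all 463 bins with a value in any list, 6 were lost in any list, and 0 outside chromosome 15 were gained. Calls were thus rare outside chromosome 15, and 0 of 37 does not set these genes apart. The bins of the 37 genes ran from 0.864 for Rbpj in the list labelled H3K27me3 to 1.14 for Ikzf1, a T-lineage transcription factor, in the H3K4me3 list. Among the tumour suppressors that T-cell leukaemias often lose, the bin of Cdkn2a and Cdkn2b had a median over the lists of 1.00, that of Trp53 1.03, that of Rb1 1.00, that of Fbxw7 1.00 and that of Nf1 1.04. Cdkn2a segments themselves, 11 over the lists, had 0.937 (exact Poisson 95% interval 0.849 to 1.03) in the H3K4me1 list. They had 0.828 (0.709 to 0.963) in the H3K4me3 list and 0.913 (0.821 to 1.01) in the list labelled H3K27me3. The bins of Etv6 and Cdkn1b (0.94), Ezh2 (1.00), Bcl11b (0.98) and Ptpn2 (0.99) were close to the median. Etv6 segments themselves were lower, with 0.810 (exact Poisson 95% interval 0.717 to 0.912) in the H3K4me1 list, 0.683 (0.520 to 0.881) in the H3K4me3 list, 0.796 (0.685 to 0.921) in the list labelled H3K27me3 and 0.909 (0.709 to 1.15) in that labelled H3K27ac. None of these bins stood near 0.5. Of the genes that leukaemias gain or activate, Myb had 1.03, Lmo2 1.04, Tal1 0.99, Lef1 1.05, Runx1 1.03 and Mycn 0.92 as the median of its bin. Myb segments themselves were higher, with 1.28 (1.21 to 1.34), 1.19 (1.09 to 1.29) and 1.19 (1.13 to 1.26) in the H3K4me1, H3K4me3 and labelled H3K27me3 lists. Runx1 segments had 1.18, 1.13, 1.13 and, in the list labelled H3K27ac, 1.33. Tal1 segments were lower than their bin, at 0.844, 0.833, 0.854 and 0.961 in the same order, and Lmo2 segments ran from 0.597 to 1.15.

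Single genes strayed further than bins. Some rest on few reads and others on many, and the cause was not tested. Each ratio is over the median of its own list, 17.5 reads per kb in the list labelled H3K27ac and 23.0 to 27 in the others. A higher ratio in that list thus need not mean more reads per kb. Ikzf1 segments had 1.25 from 2475 reads in the H3K4me1 list, 1.19 in the H3K4me3 list and 1.23 in the list labelled H3K27me3. Segments of Tcf7, a T-lineage gene, had 1.29 from 2297 reads, 1.13 and 1.22 in the same order. Both genes lie outside chromosome 15 and passed 1.2 in the H3K4me1 list and in that labelled H3K27me3. Ccnd2, which encodes cyclin D2, had 0.590 (exact Poisson 95% interval 0.447 to 0.764) from 57 reads in the H3K4me1 list and 0.519 (0.414 to 0.642) from 84 in the H3K4me3 list, while 2 segments of the list labelled H3K27ac over it held 545 reads at 0.932 (0.856 to 1.01). The low values rest on 4.2 kb and 6.0 kb of segments and the higher one on 33.4 kb. Lef1 had 1.77 (1.44 to 2.15) from 99 reads in the list labelled H3K27ac and 1.12, 1.13 and 1.07 in the other lists. Of the genes carried by the constructs, Zmiz1 segments had 0.838 (0.780 to 0.899), 0.779 (0.688 to 0.879), 0.820 (0.737 to 0.911) and 0.927 (0.850 to 1.01) in the order of the lists above, and Notch1 segments 0.845 (0.758 to 0.939), 0.864 (0.689 to 1.07), 0.799 (0.692 to 0.917) and, from a single segment of 107 reads in the list labelled H3K27ac, 1.22 (1.00 to 1.48). A construct without introns would add reads only over exons, which was not tested.

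In the receptor loci, control density approached 0.5 over several neighbouring segments in several lists, in Tcrb and in a part of Tcra. Developing T cells join variable, diversity and joining segments of Tcrb, Tcra, Tcrg and Tcrd and delete the DNA between them. The bin of Tcrb, on chromosome 6 from 40 to 45 Mb, stood at 0.92 in the H3K4me1 list, 0.88 in the H3K4me3 list, 0.93 in the list labelled H3K27me3 and 1.01 in that labelled H3K27ac, so it was not called. Within the locus the segments fell into stretches with different levels, and the borders of these stretches were chosen after their values were seen. From after Trbv3 to Trbv30 (41048825 to 41281990), all reads over all kb gave 0.542 (exact Poisson 95% interval 0.497 to 0.590) from 8 segments in the H3K4me1 list, 0.484 (0.432 to 0.542) from 8 in the H3K4me3 list and 0.558 (0.509 to 0.611) from 7 in the list labelled H3K27me3. The list labelled H3K27ac had no segment there. Segments within the stretch ran from 0.185 to 0.676.

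On both sides of that stretch the density was higher. The segment over Trbv2 and Trbv3 had 1.15 (0.980 to 1.35) in the H3K4me1 list, 1.07 (0.9 to 1.26) in the H3K4me3 list and 1.1 (0.933 to 1.29) in the list labelled H3K27me3. From Trbv1 up to Trbv2 the ratio was 0.976, 1.07, 1.00 and 1.06 in the 4 lists. From Trbd1 to Trbv31, which holds the diversity, joining and constant genes, it was 0.932 (0.711 to 1.2) from a single segment in the H3K4me1 list, 1.16 (1.09 to 1.25) in the H3K4me3 list and 1.24 (1.16 to 1.32) in the list labelled H3K27me3. A longer H3K4me1 segment, from 41545201 to 41604600, begins in this part and runs past it, with a ratio of 1.2. Between Trbv30 and Trbd1, where the trypsinogen genes lie, there was no segment in any list. The lower stretch thus begins after Trbv3 and ends before Trbd1, and where it ends cannot be placed more closely from these segments. Its reads were uniquely mapped, and the part of repeated variable genes in the low density was not tested.

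**Figure D5:**
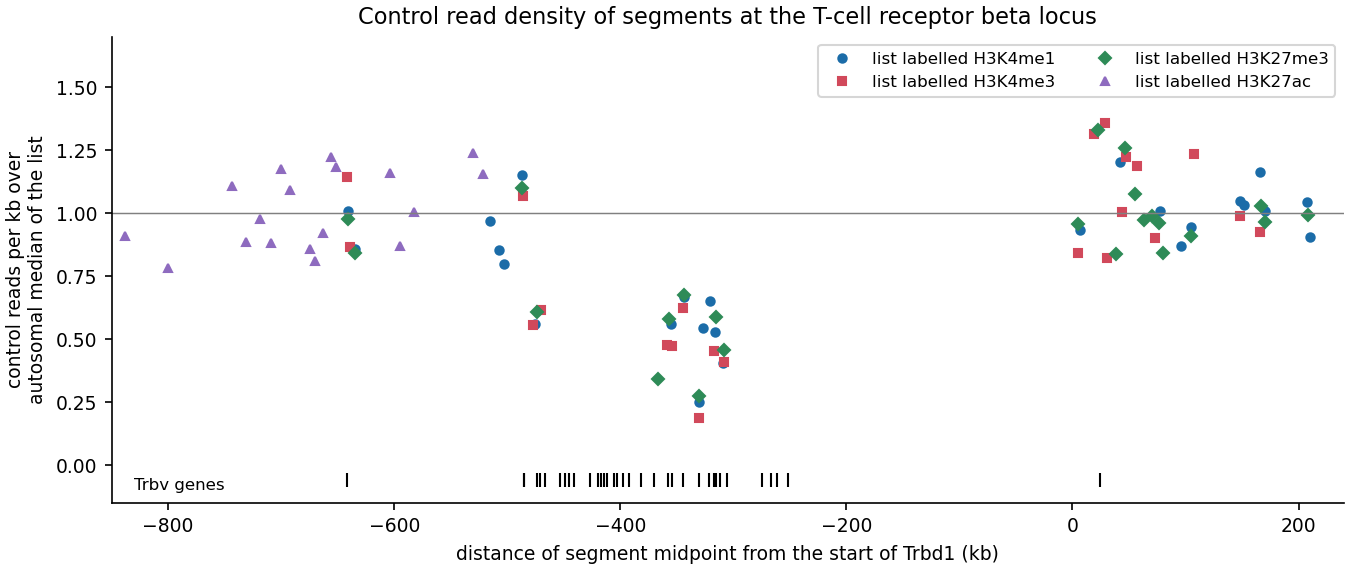
Control read density of each segment over the autosomal median of its list (vertical axis) by distance of the segment's midpoint from the start of Trbd1 (horizontal axis, kb), with the Trbv genes as ticks. Segments from after Trbv3 to Trbv30 lie between 0.185 and 0.676 in 3 lists, and segments on both sides lie between 0.783 and 1.36.

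All Tcra segments together (52427967 to 54224198 on chromosome 14) had 0.952 (0.901 to 1.00) in the H3K4me1 list, 0.727 (0.678 to 0.779) in the H3K4me3 list, 0.885 (0.844 to 0.929) in the list labelled H3K27me3 and 1.00 (0.9 to 1.12) in that labelled H3K27ac, and single segments ran from 0.0926 to 1.41. Within Tcra, the stretch from 53 to 54 Mb, which stood out in bins of 1 Mb chosen after seeing the data, had medians of 0.687, 0.504 and 0.455 in the H3K4me1, H3K4me3 and labelled H3K27me3 lists, from at least 5 segments each. The Tcrb stretch, read by the same measure of medians over segments, had 0.551, 0.475 and 0.579 in these lists. The Tcra stretch was thus lower than it in the list labelled H3K27me3, near it in the H3K4me3 list and higher in the H3K4me1 list. Tcrg, on chromosome 13, had 0.860 (0.762 to 0.968), 0.729 (0.560 to 0.933), 0.875 (0.740 to 1.03) and 0.920 (0.751 to 1.12) from 1 to 3 segments a list. Trdc, Trgc1 and Trgc2 had no segment within 10 kb. Igh, the immunoglobulin heavy chain locus that B cells and not T cells rearrange in full, had 1.06, 1.04, 1.02 and 0.972, and its single segments also ran widely, from 0.206 to 1.90.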

How the data were processed

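The authors aligned reads with Bowtie 0.12.7 to mm10 and called segments with SICER 1.1 and peaks with MACS2 2.0.10, per the submitters' processing notes, which also name FastQC 0.10.0 and HOMER 4.2. The reads kept were uniquely mapped, per the names of the deposited files. SICER's window, gap and extension are not given in the sources used here. Segment widths were multiples of 200 bp. The deposited segment lists give read counts of precipitation and control, a ratio (fold) scaled for the read totals by a constant factor in each list, and a p-value, which was not used as evidence. The deposited peaks give a pileup signal, a fold over local input and a −log10 p, per the file headers.

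Control counts were divided by segment length, then by the median over autosomal segments of the same list. A chromosome or 5 Mb bin was called gained at 1.2 or more and lost at 0.8 or less. Local input at a peak was taken as (pileup + 1) / fold − 1, in which 1 is the constant MACS2 adds. Intervals are exact Poisson at 95%. Regions named were the 3 highest and 3 lowest chromosomes, all runs of 2 or more gained or lost bins, and the 5 highest and 5 lowest bins. Genes named came from a list of T-cell leukaemia genes, receptor loci and Notch partners. An item that this list covers is not reported here. The members, lists and tests were chosen with earlier results of these data known. Gene positions and promoter windows are RefSeq's on GRCm38.p6, the same build as mm10. The procedure was tested on simulated data with set copy numbers. Python 3.11.15, numpy 2.4.6, pandas 2.3.3 and scipy 1.17.1 were used. With 1 control library there was no replicate and no test. The ICN1 peaks of the Flag line were left out as too few.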

Additional observations from a re-analysis of the deposited data

How the results depend on the processing

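The median ratio of chromosome 15 stayed between 1.35 and 1.37 under 12 alternatives. Those that change only the limits of a call could not move it. Under each of the 12, 1 autosome was gained and 0 were lost in 3 or more lists. Under 18 alternatives 0 bins outside chromosome 15 were gained in 3 or more lists, and the bin counts below use the same rule. With a limit of 1.1, bins outside chromosome 15 passed in single lists, up to 1.14 in the H3K4me3 list. The other values moved as follows. With all reads over all kb, the lowest other autosome stood at 0.946, the highest at 0.997, and the mean correlation between lists was 0.739, against 0.967, 1.02 and 0.824. With segments of 1 list only, the correlation was 0.709 and 6 bins were gained in 3 or more lists, out of 135 bins in place of 443. Outside chromosome 15, a choice made after seeing the data, the correlation was 0.484. With limits of 1.1 and 0.9, 13 of 443 bins were lost. Bins of 2 Mb gave 31 gained of 804. Bins of 1 Mb, also chosen after seeing the data, gave 50 gained and 4 lost of 1436. The share of chromosome 15 bins gained moved little, from 83.3% in the main setting to 86.1% at 2 Mb and 79.4% at 1 Mb. The higher counts thus go with smaller and more numerous bins. The 4 lost were on chromosome 14 from 53 to 54 Mb inside Tcra (0.687, 0.504 and 0.455 in the H3K4me1, H3K4me3 and labelled H3K27me3 lists), chromosome 8 from 39 to 40 Mb, chromosome 1 from 79 to 80 Mb and chromosome 11 from 57 to 58 Mb. With at least 5 segments a bin, 1 of 465 bins was lost, chromosome 7 from 50 to 55 Mb (0.764, 0.689 and 0.734 in the same lists). At peaks with a −log10 p of 10 or more, chromosome 15 had 1.42 for Rbpj and 1.32 for HA-Zmiz1. The cause of these shifts was not tested. No paired analysis was possible because each group has 1 library. Segments hold a median of 54 to 80 control reads, so single segments bear errors that bins and chromosomes do not. No density is known outside segments, and GC content was read from promoter windows only.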
